A study of Mus musculus with 9 samples.

Results

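The 10 transcription factor genes described here are the GATA factors Gata1 and Gata2, the subunits Tal1, Lyl1, Lmo2 and Ldb1 of the SCL complex, and Zfpm1, Gfi1b, Klf1 and Nfe2, which act with them in red cells and platelets. They were picked by symbol, as 10 of the 55488 genes in the deposited tables, and each symbol matched 1 gene in all 9 tables. All 10 had at least 1 TPM (a share of all transcripts, scaled for gene length and for library) in 3 or more libraries, the requirement for being tested, which 19461 genes met. RNA was sequenced from blood cells sorted from the livers of C57BL/6 mouse fetuses at embryonic day 14.5, in 9 libraries of 100 cells each, 3 per group. The design asks what ectopic Evi1, the zinc finger factor made from Mecom, does to stem cells. Evi1 HSC libraries held GFP+ cells in the gate CD150+CD48-c-Kit+Sca-1+Lin-, which enriches haematopoietic stem cells (HSC), from Tie2-Cre::ROSA-Evi1 fetuses. Tie2-Cre is a recombinase driven by a promoter active in endothelial and blood cells, so the transgene is not limited to stem cells. For WT HSC, ROSA-Evi1 fetuses with no Cre named gave cells of that gate, with GFP not used. For WT KL, the same ROSA-Evi1 genotype gave c-Kit+Sca-1-Lin- cells, which are mostly committed progenitors. All groups therefore carried the ROSA-Evi1 allele, and in the Evi1 HSC group the genotype cannot be told apart from the GFP gate. No label says whether replicates came from separate fetuses, so p-values measure the spread between these libraries, which may be technical.

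GATA2 is the GATA factor of stem and early progenitor cells, and GATA1 takes its place at many regulatory sites as cells become erythroid, an exchange known as the GATA switch. The basic helix-loop-helix proteins TAL1 (SCL) and LYL1 pair with E proteins and are joined to GATA factors through the LIM-only bridge LMO2 and its partner LDB1. KLF1, GFI1B and the GATA1 cofactor FOG1 (Zfpm1) act with this complex in the fetal liver, the main site of red cell formation at that stage, and EVI1 is known to bind DNA sequences that resemble GATA sites.

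Mecom, the gene of EVI1, was at 209, 176 and 210 TPM in Evi1 HSC, against 161 and 114 TPM in WT HSC replicates 1 and 2 and 0.0107 and 0.325 TPM in WT KL replicates 2 and 3. Whether reads of the transgene count towards Mecom is not stated. Labels were checked on the stem cell genes Mecom, Hlf and Ly6a and on the granulocyte gene Mpo, and 2 libraries went against theirs. In the library labelled WT HSC replicate 3, Mecom was at 0.0167 TPM, Hlf at 0.631 TPM and Mpo at 579 TPM. In WT KL replicates 2 and 3, Hlf was at 1.83 and 2.19 TPM and Mpo at 812 and 279 TPM. Conversely, Mecom was at 90.8 TPM, Hlf at 164 TPM and Mpo at 13.6 TPM in that labelled WT KL replicate 1, while in WT HSC replicates 1 and 2 Hlf was at 153 and 189 TPM and Mpo at 13.3 and 8.24 TPM. Summed over 12 stem cell genes, these 2 libraries held 33.6 and 931 TPM, in that order. Libraries were never relabelled, and the WT HSC pair and the WT KL pair below are replicates 1 and 2 and replicates 2 and 3 of those groups, without them. Each comparison was fitted over all 9 libraries as labelled and again over the 7 that remain without these 2, which leaves 2 libraries in each WT group. The 2 were left out for their own RNA values, which by itself sets WT HSC and WT KL further apart. Calls and p-values over 7 libraries therefore describe groups chosen after seeing the data. Between 15422 and 18806 genes reached 1 TPM per library, and TPM keeps no record of read depth, so the depth behind each value is unknown.

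Promoter sequence is shown for Gata1, Klf1 and Gfi1b, the 3 members that were lower in every Evi1 HSC library than in every WT library. Each run is from RefSeq on GRCm38.p6, reads 5′ to 3′ on the strand of the gene and ends just before its RefSeq start site. For Klf1 it stops before the first base that GENCODE counts as exon, and the Gata1 run lies within the GENCODE gene but outside its exons. Capitals mark AGATAA or TGATAA, 2 forms of the GATA site, and CCNCNCCC, the KLF site, each on either strand.
Gata1 (chrX:7967911-7968160, minus strand): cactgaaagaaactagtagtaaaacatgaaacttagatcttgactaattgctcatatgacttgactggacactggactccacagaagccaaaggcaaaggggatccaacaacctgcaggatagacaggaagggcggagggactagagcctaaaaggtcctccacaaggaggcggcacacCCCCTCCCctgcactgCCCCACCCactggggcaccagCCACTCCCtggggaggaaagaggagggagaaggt
Klf1 (chr8:84901732-84901927, plus strand): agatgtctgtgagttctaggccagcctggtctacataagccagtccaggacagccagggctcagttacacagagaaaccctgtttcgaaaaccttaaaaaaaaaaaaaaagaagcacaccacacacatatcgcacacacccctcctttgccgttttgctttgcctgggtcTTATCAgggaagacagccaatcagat
Gfi1b (chr2:28621983-28622232, minus strand): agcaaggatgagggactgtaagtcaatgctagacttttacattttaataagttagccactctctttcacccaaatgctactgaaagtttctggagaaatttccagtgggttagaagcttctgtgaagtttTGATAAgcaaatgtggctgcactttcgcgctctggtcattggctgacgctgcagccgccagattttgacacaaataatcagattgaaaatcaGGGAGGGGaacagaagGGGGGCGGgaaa
The Gata1 run held 3 KLF matches, 71, 55 and 34 bases upstream of the start, and neither GATA form. The Klf1 run held TGATAA on the opposite strand, read as TTATCA, 80 bases upstream, and the Gfi1b run held TGATAA 120 bases upstream with 2 KLF matches nearer to the start. Of 32851 RefSeq promoter windows of 250 bases, 9.99% held AGATAA, 7.94% TGATAA and 45.9% CCNCNCCC, so a KLF match is common. RefSeq gave promoters for 8 of the 10 members, with 12 start sites, and gave none for Lmo2 and Nfe2. GAAGATGAG, a sequence reported for EVI1 and held by 0.347% of all windows, was at the second Tal1 start, 29 bases upstream. A longer EVI1 motif had no match in the 12 windows, nor had TGACTCA, the NFE2 core, which 4.46% of all windows held. AGATAA was at the first Tal1 start and the third Ldb1 start. CAGNTG, the E-box of TAL1, was at the third Ldb1 start and at Lyl1 and Klf1, against 44.8% of all windows. A match describes the sequence and not binding, and the absence of one says only that these letters are not in the window.

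Gata1 (ENSMUSG00000031162, chromosome X, 7959260 to 7978071, minus strand, GRCm38) was lowest in the Evi1 HSC libraries. It stood at 4.20, 3.79 and 2.79 TPM in Evi1 HSC replicates 1 to 3. The WT HSC pair held 17.3 and 18.2 TPM and the WT KL pair 107 and 118 TPM. Of the libraries against their labels, WT HSC replicate 3 held 100.1 TPM and WT KL replicate 1 held 8.92 TPM. Every Evi1 HSC library was below every WT library, including both that went against their labels.

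Gata2 (ENSMUSG00000015053, chromosome 6, 88193891 to 88207032, plus strand), by contrast, was about as abundant in Evi1 HSC as in WT HSC. Its level was 43.5, 32.6 and 57.3 TPM in Evi1 HSC, against 40.2 and 42.7 TPM in the WT HSC pair. It was 6.53 and 7.51 TPM in the WT KL pair. At 7.56 TPM the library labelled WT HSC replicate 3 was near the WT KL pair, and at 35.7 TPM that labelled WT KL replicate 1 was near the WT HSC pair. The Evi1 HSC range took in both of the WT HSC values.

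The balance of the GATA factors, as the ratio of their TPM, leaned furthest to Gata2 in Evi1 HSC. Gata2 was 10.3, 8.60 and 20.5 times as abundant as Gata1 in the 3 Evi1 HSC libraries. The ratio was 2.33 and 2.34 in the WT HSC pair, and 0.0608 and 0.0634 in the WT KL pair. Of the libraries against their labels, WT HSC replicate 3 had a ratio of 0.0756 and WT KL replicate 1 a ratio of 4.0. The lowest Evi1 HSC ratio was thus above the highest WT ratio. Between Evi1 HSC and the WT HSC pair the Gata1 side of the ratio differed, while the Gata2 levels overlapped. In the WT pairs both sides differed between WT HSC and WT KL, in opposite directions.

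**Figure D1:**
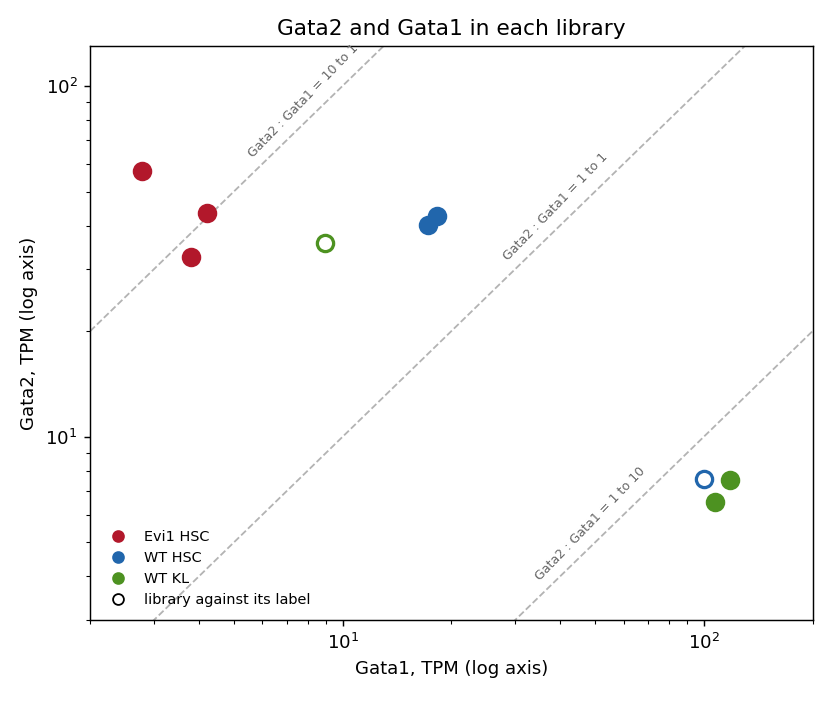
Gata2 against Gata1 in each of the 9 libraries, in TPM on log axes. Points are libraries coloured by their labelled group, open points went against their labels, and dashed lines mark ratios of 10 to 1, 1 to 1 and 1 to 10. The 3 Evi1 HSC libraries lie at Gata1 levels of 2.79 to 4.20 TPM, left of all WT libraries.

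The mean log2 ratio, with 1 TPM added to each gene, was 3.28 ± 0.59 (SD, n = 3) in Evi1 HSC, −0.40 ± 2.74 (SD, n = 3) in WT HSC and −1.92 ± 3.30 (SD, n = 3) in WT KL as labelled. Evi1 HSC minus WT HSC was 3.69 with a two-sided exact permutation p = 0.1, the smallest that 3 against 3 libraries allow. Evi1 HSC minus WT KL was 5.21 (exact permutation p = 0.1), and WT HSC minus WT KL was 1.52 (exact permutation p = 0.8). Without both libraries against their labels, Evi1 HSC minus WT HSC was 2.11 and Evi1 HSC minus WT KL 7.11, each with exact permutation p = 0.1, again the smallest possible. WT HSC minus WT KL was then 5.01, with exact permutation p = 0.333, the smallest for 2 against 2. No design here can reach 0.05, so these tests only describe the separation. The comparisons share libraries: WT HSC enters 2 of them, as do Evi1 HSC and WT KL.

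Klf1 (ENSMUSG00000054191, chromosome 8, 84901928 to 84905291, plus strand) encodes the zinc finger activator of globin and red cell membrane genes, and had the widest range of the members, as highest over lowest level. It was at 2.51, 0.474 and 0.110 TPM in Evi1 HSC replicates 1 to 3. The WT HSC pair held 23.1 and 21.1 TPM, and the WT KL pair held 147 and 151 TPM. Of the libraries against their labels, WT HSC replicate 3 held 155 TPM and WT KL replicate 1 held 13.6 TPM. Evi1 HSC lay below all WT libraries, and within Evi1 HSC the highest level was 22.7 times the lowest.

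Gfi1b (ENSMUSG00000026815, chromosome 2, 28609450 to 28621982, minus strand), a repressor needed for red cells and platelets, ran in the same order. Its level was 10.7, 6.97 and 9.43 TPM in Evi1 HSC, against 21.2 and 21.4 TPM in the WT HSC pair, and 72.9 and 84.1 TPM in the WT KL pair. The libraries labelled WT HSC replicate 3 and WT KL replicate 1 held 70.2 and 17.3 TPM. No Evi1 HSC value reached the lowest WT value.

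Nfe2 (ENSMUSG00000058794, chromosome 15, 103248212 to 103258403, minus strand), which pairs with small MAF proteins to drive platelet and globin genes, ran the other way. It was at 88.3, 103 and 101 TPM in Evi1 HSC, against 74.4 and 77.8 TPM in the WT HSC pair and 37.6 and 30.5 TPM in the WT KL pair. Those labelled WT HSC replicate 3 and WT KL replicate 1 held 48.2 and 70.9 TPM. All 3 Evi1 HSC libraries were above all WT libraries.

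**Figure D2:**
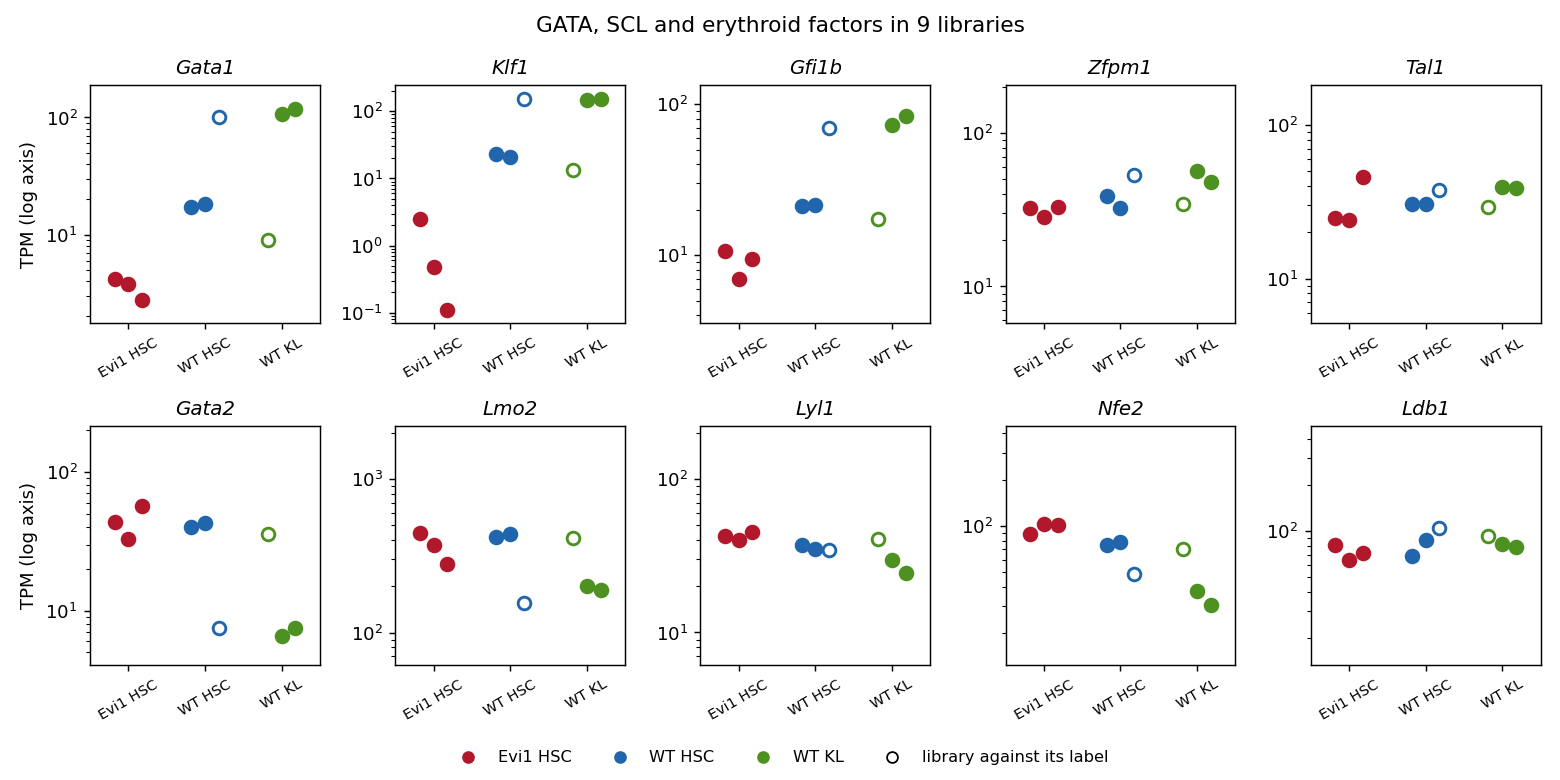
Level of each of the 10 factors, in TPM on a log axis, in each library by labelled group. Points are single libraries and open points went against their labels. Gata1, Klf1 and Gfi1b rank Evi1 HSC lowest in all 3 of its libraries and Nfe2 ranks it highest. Ldb1, Tal1, Gata2 and Lmo2 overlap between all labelled groups.

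Seen over all 6 WT libraries at once, which uses no WT gate label, 3 members were lower in every Evi1 HSC library (Gata1, Klf1 and Gfi1b), 1 was higher (Nfe2) and 6 overlapped. Of all tested genes, 9.39% did not overlap in this way, 5.11% higher and 4.28% lower. This description was chosen after seeing the data and carries no test.

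The core of the SCL complex differed less. Lmo2 (ENSMUSG00000032698, chromosome 2, 103957986 to 103981878, plus strand), the LIM bridge, was the most abundant member in every library, if only just above Klf1 in that labelled WT HSC replicate 3. It was at 446, 370.5 and 282 TPM in Evi1 HSC, against 419 and 443 TPM in the WT HSC pair and 201 and 190.3 TPM in the WT KL pair. The libraries labelled WT HSC replicate 3 and WT KL replicate 1 held 155 and 417 TPM. Lmo2 in Evi1 HSC thus overlapped WT HSC and lay above the WT KL pair.

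Tal1 (ENSMUSG00000028717, chromosome 4, 115056426 to 115071755, plus strand), the helix-loop-helix subunit that binds DNA, was at 24.8, 24.3 and 46.3 TPM in Evi1 HSC. It stood at 30.5 and 30.6 TPM in the WT HSC pair and at 39.9 and 39.1 TPM in the WT KL pair. Of the libraries against their labels, WT HSC replicate 3 held 37.7 TPM and WT KL replicate 1 held 29.3 TPM. The Tal1 values of Evi1 HSC lay on both sides of every WT value, with replicate 3 set apart from the other two.

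Lyl1 (ENSMUSG00000034041, chromosome 8, 84701457 to 84704715, plus strand), the relative of Tal1 in stem and lymphoid cells, was at 42.4, 40.02 and 45.0 TPM in Evi1 HSC. The WT HSC pair held 37.0 and 35.1 TPM and the WT KL pair held 29.8 and 24.6 TPM. The libraries labelled WT HSC replicate 3 and WT KL replicate 1 held 34.7 and 40.8 TPM. Evi1 HSC was above every library labelled WT HSC, and overlapped the library labelled WT KL replicate 1. In Lyl1, 4 of 1800 exonic bases are shared with Nfix on the opposite strand, and the sources used here do not say whether counting used strand.

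Ldb1 (ENSMUSG00000025223, chromosome 19, 46031570 to 46045214, minus strand), the dimerizing adaptor that loops enhancers to promoters, had the narrowest range of the members over the 9 libraries, as highest over lowest level. It ranged from 64.8 to 80.3 TPM in Evi1 HSC, against 69.0 to 104 TPM in all labelled WT HSC and 78.2 to 92.2 TPM in all labelled WT KL. The groups overlapped. In Ldb1, 177 of 4606 exonic bases are shared with Pprc1 on the opposite strand.

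Zfpm1 (ENSMUSG00000049577, chromosome 8, 122282141 to 122337251, plus strand), which encodes FOG1, was at 32.7, 28.4 and 33.0 TPM in Evi1 HSC, against 39.1 and 32.5 TPM in the WT HSC pair and 56.6 and 47.9 TPM in the WT KL pair. Those labelled WT HSC replicate 3 and WT KL replicate 1 held 53.3 and 34.4 TPM. Evi1 HSC overlapped WT HSC and lay below all libraries labelled WT KL.

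The first comparison tests Evi1 HSC against stem cells of the same surface gate without Cre. Over all 9 libraries, limma called 0 of the 10 members at an adjusted p under 0.05, against 0.00514% of all genes. An unadjusted p under 0.05 was found for 3 members (Gata1, Klf1 and Gfi1b), against 907 of all 19461 genes. Group differences are given as log2(TPM + 1), a scale that understates the change of low genes. Gata1 was −2.85 (SE 0.99), Klf1 −4.61 (SE 1.06) and Gfi1b −1.73 (SE 0.64), each with a limma adjusted p = 0.791. Gata2 was 0.83 (SE 0.76) at the same adjusted p. In 5 members the libraries of the groups did not overlap, with Lyl1 and Nfe2 higher and Gata1, Klf1 and Gfi1b lower in Evi1 HSC, against 15.9% of all genes (9.19% higher and 6.76% lower).

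Over 7 libraries Gata1 and Klf1 fell in Evi1 HSC relative to WT HSC, 2 of the 10 members, against 0.206% of all genes (0.0565% higher and 0.149% lower), and no member rose. Gata1 differed by −2.04 (SE 0.17, 95% interval −2.45 to −1.63, limma adjusted p = 0.0182). Its mean level was 3.59 ± 0.726 TPM (SD, n = 3) in Evi1 HSC and 17.8 ± 0.693 TPM (SD, n = 2) in WT HSC, 4.94 times as high. It was lower in 3 of 3 Evi1 HSC libraries, as was Klf1, which differed by −3.69 (SE 0.45, 95% interval −4.75 to −2.63, limma adjusted p = 0.0430). The mean level of Klf1 was 1.03 ± 1.29 TPM (SD, n = 3) in Evi1 HSC and 22.1 ± 1.40 TPM (SD, n = 2) in WT HSC, 21.4 times as high. Gfi1b did not pass, at −1.17 (SE 0.19, limma adjusted p = 0.113), with a mean TPM 2.36 times as high in WT HSC. Nfe2 did not pass either, at 0.35 (SE 0.13, limma adjusted p = 0.541). Gata2 was 0.06 (SE 0.23, limma adjusted p = 0.972), with a 95% interval of −0.48 to 0.61. Tal1, Lmo2, Ldb1, Zfpm1 and Lyl1 ranged from −0.26 to 0.23, with limma adjusted p from 0.708 to 0.998.

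Both calls rested on few libraries, although the direction held in all 12 alternatives. None of these included the library labelled WT KL replicate 1, which resembled WT HSC. It held 8.92 TPM of Gata1 and 13.6 TPM of Klf1, nearer to Evi1 HSC than either library of the WT HSC pair. The Gata1 difference stayed between −2.29 and −1.91 over 12 alternatives, and 5 of them kept its call. Its limma adjusted p was 0.0602 without Evi1 HSC replicate 2, 0.129 and 0.0889 without WT HSC replicates 1 and 2, and 0.0955 and 0.0914 without WT KL replicates 2 and 3. Klf1 stayed between −5.03 and −3.34 and kept its call in 2 alternatives, with quantile normalization and without Evi1 HSC replicate 1 (limma adjusted p = 0.00380). Its limma adjusted p was 0.132 and 0.0814 without Evi1 HSC replicates 2 and 3. It was 0.215 and 0.164 without WT HSC replicates 1 and 2, and 0.155 and 0.156 without WT KL replicates 2 and 3. A pseudocount of 0.1 gave Klf1 −5.03 (limma adjusted p = 0.160) and Gata1 −2.29 (limma adjusted p = 0.0252). With the replicate number as a block neither was called (limma adjusted p = 0.210 for Gata1 and 0.189 for Klf1). A fit of only the groups compared called neither (0.125 and 0.163). Of all 19461 genes, the fit over 7 libraries called 40, the block 0 and the groups compared alone 6. Leaving out 1 library called 5 to 27 genes, so calls were lost over all genes as well.

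**Figure D3:**
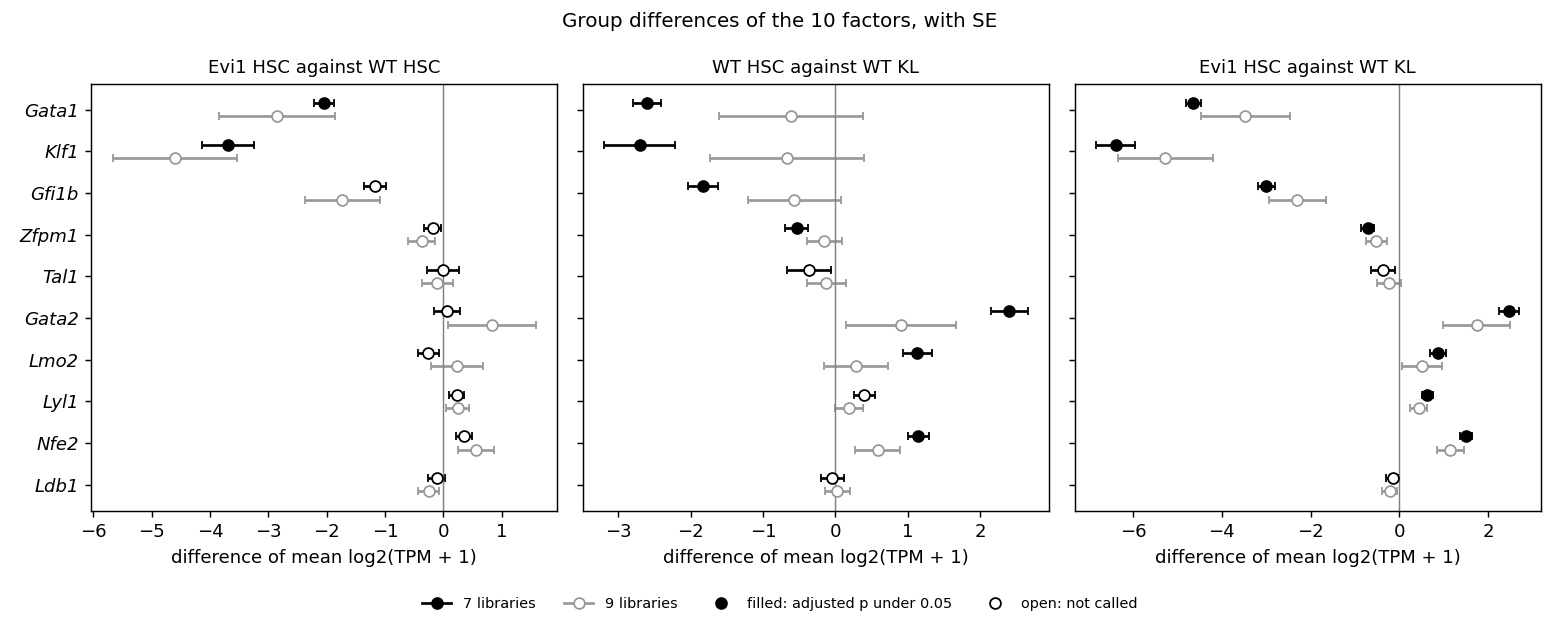
Group differences of the 10 factors as mean log2(TPM + 1) of the first group minus the second, one panel per comparison. Black points are the fit over 7 libraries, grey points the fit over 9 libraries as labelled, bars are 1 SE, and filled points were called at an adjusted p under 0.05. Gata1 and Klf1 are filled in all 3 panels over 7 libraries, and no point is filled over 9.

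Comparing WT HSC with WT KL asks how the factors differ between stem cells and committed progenitors. Over 9 libraries limma called 0 of the 10 members, against 0.00514% of all genes. At an unadjusted p under 0.05 there were 0 members, against 282 of all 19461 genes. The libraries overlapped in all 10, while 3.36% of all genes did not overlap (1.42% higher and 1.94% lower). In these groups Gata1 differed by −0.62 and Gata2 by 0.90, each with a limma adjusted p = 0.963.

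Over 7 libraries 7 of the 10 members were called between WT HSC and WT KL, against 37.5% of all genes (26.7% higher and 10.8% lower). The choice of libraries on their RNA favours this separation: 7307 genes in all were called here, against 1 over 9 libraries as labelled. The p-values below thus only describe it. Gata2, Lmo2 and Nfe2 were higher in WT HSC. Gata2 differed by 2.41 (SE 0.25, limma adjusted p = 0.000740), Nfe2 by 1.15 (SE 0.15, limma adjusted p = 0.00158) and Lmo2 by 1.13 (SE 0.20, limma adjusted p = 0.00526). Gata1, Klf1, Gfi1b and Zfpm1 were lower in WT HSC. Gata1 differed by −2.60 (SE 0.19, limma adjusted p = 0.000197), Klf1 by −2.70 (SE 0.49, limma adjusted p = 0.00592) and Gfi1b by −1.83 (SE 0.21, limma adjusted p = 0.000961). Zfpm1 differed by −0.54 (SE 0.16, limma adjusted p = 0.0385). Lyl1 did not pass, at 0.40 (SE 0.14, limma adjusted p = 0.0682), nor did Tal1, at −0.36 (SE 0.30, limma adjusted p = 0.382), or Ldb1, at −0.04 (SE 0.16, limma adjusted p = 0.863).

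All genes together were shifted by a median of 0.26 towards WT HSC, with 5203 called higher and 2104 lower, and quantile normalization gave 2999 higher and 3155 lower. The 7 members kept their directions under quantile normalization. Zfpm1 lost its call in 8 of 12 alternatives. Its limma adjusted p was 0.0563 and 0.0514 without Evi1 HSC replicates 1 and 3, 0.177 without WT HSC replicate 2, and 0.176 and 0.0657 without WT KL replicates 2 and 3. Klf1 lost its call with a pseudocount of 0.1 (limma adjusted p = 0.0702).

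Evi1 HSC were also set against WT KL, with the WT KL libraries shared with the preceding comparison. Over 9 libraries limma called 0 of the 10 members, against 0.0103% of all genes. An unadjusted p under 0.05 was found for 5 members, against 2956 of all 19461 genes. In 5 members (Gata1, Klf1, Gfi1b and Zfpm1 lower, Nfe2 higher) the libraries did not overlap, against 23.5% of all genes (13.5% higher and 10% lower). Without the library labelled WT KL replicate 1, 3 members were called: Gata1 at −4.64 (limma adjusted p = 0.0463), Klf1 at −6.39 (0.0424) and Nfe2 at 1.50 (0.0477). That fit called 96 of all 19461 genes, 35 higher and 61 lower, where the fit over 9 libraries called 2.

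Over 7 libraries 8 of the 10 members were called between Evi1 HSC and WT KL, against 45.5% of all genes (31.3% higher and 14.3% lower). The same choice of libraries on their RNA lies behind these calls. Gata1 differed by −4.64 (SE 0.17, limma adjusted p = 1.55e-05), Klf1 by −6.39 (SE 0.45, limma adjusted p = 9.19e-05) and Gfi1b by −3.00 (SE 0.19, limma adjusted p = 6.68e-05). Zfpm1 was lower as well, by −0.72 (SE 0.15, limma adjusted p = 0.00762). Gata2 was higher by 2.47 (SE 0.23, limma adjusted p = 0.000287), Nfe2 by 1.50 (SE 0.13, limma adjusted p = 0.000243), Lmo2 by 0.88 (SE 0.18, limma adjusted p = 0.00790) and Lyl1 by 0.63 (SE 0.13, limma adjusted p = 0.00822). Tal1 and Ldb1 did not pass, at −0.37 and −0.15 (limma adjusted p = 0.310 and 0.426). The mean TPM of Gata1 was 31.4 times and that of Klf1 145 times as high in WT KL as in Evi1 HSC, while Gata2 was 6.33 times as high in Evi1 HSC.

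All genes were shifted by a median of 0.28 towards Evi1 HSC, with 6087 called higher and 2776 lower, or 3663 higher and 4014 lower with quantile normalization. Zfpm1 lost its call without WT KL replicate 2 (limma adjusted p = 0.0583), and Lmo2 and Lyl1 lost theirs without WT KL replicate 3 (0.0554 and 0.0576). Tal1 was called without Evi1 HSC replicate 3, at −0.66 (limma adjusted p = 0.00956).

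Red cell genes known as targets of GATA1 or KLF1 were followed as a list of 31, of which 30 were tested. Over 7 libraries 3 of the 30 fell in Evi1 HSC relative to WT HSC and none rose, against 0.206% of all genes, and the median difference was −0.99 beside 0.00 over all genes. They were Epor, the erythropoietin receptor, Ermap, a red cell surface protein, and Pklr, the red cell pyruvate kinase. Epor was at 4.89, 5.75 and 5.71 TPM in Evi1 HSC, against 16.9 and 14.2 TPM in the WT HSC pair, a difference of −1.36 (SE 0.15, limma adjusted p = 0.0387). Ermap was at 1.61 TPM in Evi1 HSC replicate 1, was listed at 0 in replicates 2 and 3, and stood at 27.7 and 26.7 TPM in the WT HSC pair (−4.35, SE 0.42, limma adjusted p = 0.0313). Pklr was at 1.95, 0 and 0.00404 TPM in Evi1 HSC, against 37.9 and 26.8 TPM in the WT HSC pair (−4.52, SE 0.48, limma adjusted p = 0.0387). Of its 3236 exonic bases, 711 are shared with Hcn3 on the opposite strand. The 3 calls became 0 on leaving out any 1 of Evi1 HSC replicates 2 and 3 and the libraries of the WT HSC and WT KL pairs, and 4 without Evi1 HSC replicate 1. Over all genes those fits called 5 to 27, against 40 with all 7 libraries.

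Not all red cell genes ran with Gata1. Over 7 libraries 23 of the 30 differences between Evi1 HSC and WT HSC were negative, among them Rhd at −3.11 (limma adjusted p = 0.0601) and Tfrc, the transferrin receptor, at −1.61 (limma adjusted p = 0.0845). The adult beta globin genes were not among them. Hbb-bt held 1429, 681 and 861 TPM in Evi1 HSC, against 545 and 619 TPM in the WT HSC pair, a difference of 0.70. Hba-a1 held 244, 2.40 and 2.03 TPM in Evi1 HSC, against 22.2 and 94.4 TPM in the WT HSC pair. Within Evi1 HSC, replicate 1 was the highest in Klf1, Ermap, Pklr and Hba-a1. It also held 14.8 TPM of Slc4a1, the anion exchanger of mature red cells, against 0.0892 and 0 TPM in replicates 2 and 3. The red cell genes, globins included, summed to 3624 TPM in Evi1 HSC replicate 1 and to 1406 and 1777 TPM in replicates 2 and 3. The WT HSC pair summed to 1515 and 1919 TPM and the WT KL pair to 2826 and 2897 TPM. Those labelled WT HSC replicate 3 and WT KL replicate 1 summed to 3099 and 8945 TPM, so these sums did not follow Gata1. Without replicate 1 the Gata1 difference was −2.14 and the Klf1 difference −4.17, both larger than with it.

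**Figure D4:**
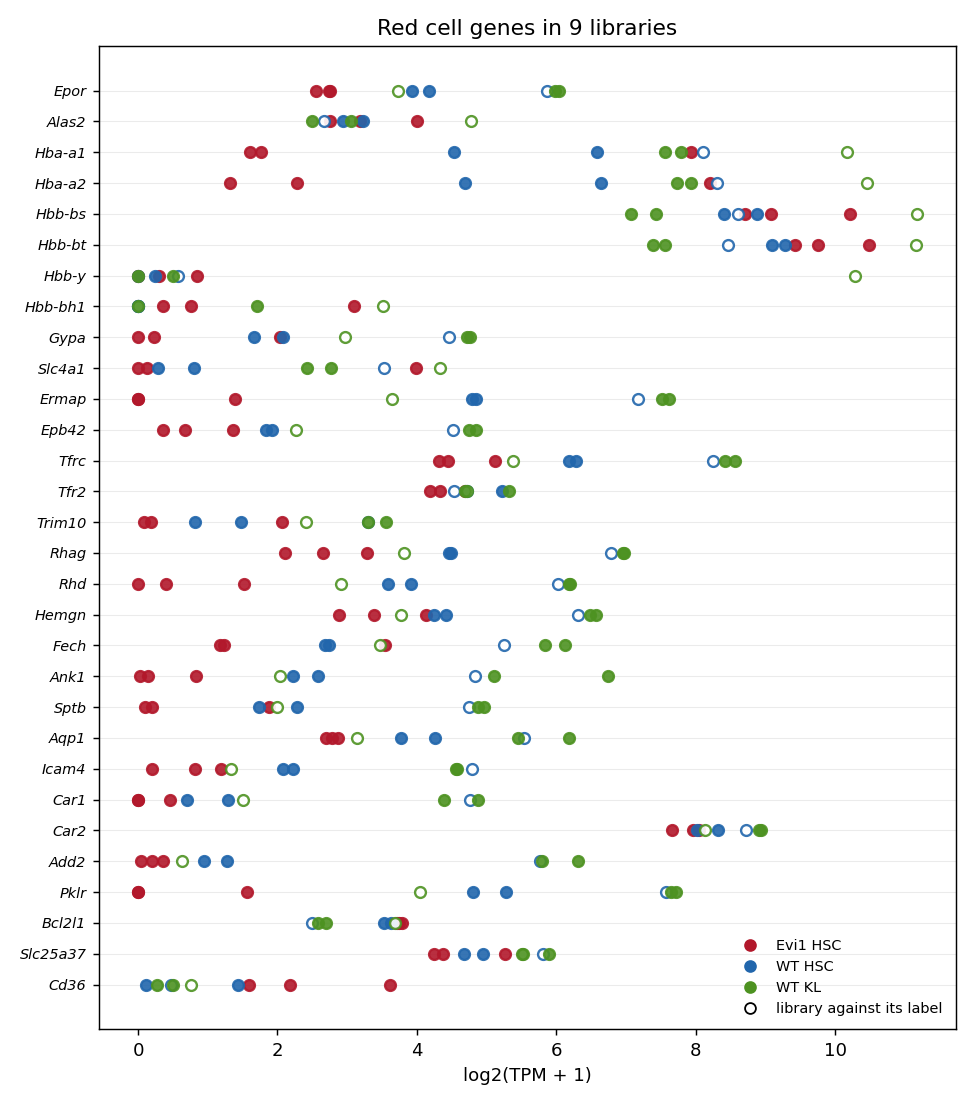
Known red cell targets of GATA1 or KLF1 (30 of the 31 listed) in each library, as log2(TPM + 1). Points are single libraries coloured by labelled group, and open points went against their labels. Epor, Ermap, Rhd, Ank1 and Pklr place all 3 Evi1 HSC libraries lowest, while Hbb-bs and Hbb-bt do not.

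Set beside all 6 WT libraries, 13 of the 30 red cell genes (43.3%) were lower in every Evi1 HSC library and 2 were higher (Bcl2l1 and Cd36), against 4.28% and 5.11% of all genes. Among the 13 were Epor, Ermap, Epb42, Tfrc, Rhag, Rhd, Ank1, Aqp1, Icam4, Car1, Add2 and Pklr, which span receptors, the membrane skeleton, blood group antigens and enzymes. Over 9 libraries as labelled limma called 0 of the 30 between Evi1 HSC and WT HSC. At an unadjusted p under 0.05 there were 12, against 907 of all 19461 genes. In bulk libraries, fewer red cell progenitors in the gate and less of these RNAs per cell cannot be told apart. Markers of other cells that the gate could hold were compared over 7 libraries. Granulocyte and monocyte markers summed to 152 to 176 TPM in Evi1 HSC, against 192 and 213 TPM in the WT HSC pair. Of their 11 genes, 0 were called between Evi1 HSC and WT HSC by limma, with 0 at an unadjusted p under 0.05. Against all 6 WT libraries, 1 of the 11 (9.09%) was lower in every Evi1 HSC library and 0 higher, beside 4.28% and 5.11% of all genes. Mast cell, basophil and eosinophil markers summed to 0.968 to 4.12 TPM in Evi1 HSC, against 1.05 and 0.677 TPM in these WT HSC libraries, with 7 or 8 of the 10 listed at 0 in each, Mcpt8, Fcer1a, Prg2 and Epx among them in all. Macrophage markers summed to 15.4 to 19.8 TPM and to 8.07 and 14.7 TPM, and endothelial markers to 227 to 259 TPM and to 156 and 238 TPM, in the same order. Limma called 0 of the 2 tested macrophage and 0 of the 8 tested endothelial genes, and all 8 endothelial differences were positive. At an unadjusted p under 0.05 there were 0 and 2 of them, against 1635 of all 19461 genes. Beside all 6 WT libraries, the 2 tested of 8 listed macrophage genes (Cd68 and Mrc1) were higher in every Evi1 HSC library, against 5.11% of all genes. The macrophage markers Adgre1, C1qa, C1qb and Cd5l were too low to be tested and overlapped. Of the 8 endothelial genes, 2 were higher (Lyve1 and Stab2), against the same share, and 6 overlapped, Cdh5 and Kdr among them. The part of other cell types in the Gata1 and Klf1 differences was not tested.

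Between WT HSC and WT KL over 7 libraries, 19 of the 30 red cell genes were lower and 2 higher in WT HSC, against 10.8% and 26.7% of all genes, with a median of −2.23 beside 0.26 over all genes. Add2, a subunit of the membrane skeleton, was at −4.94 (limma adjusted p = 7.37e-05), and Hbb-bt (1.72) and Bcl2l1 (0.94) were the 2 that were higher. Between Evi1 HSC and WT KL 20 were lower and 4 higher, against 14.3% and 31.3% of all genes, with Pklr at −7.16 and Ermap at −7.10.

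Stem cell partners of GATA2 did not pass between Evi1 HSC and WT HSC. Runx1, Erg and Fli1 encode the RUNX and ETS factors that bind with GATA2, TAL1, LYL1 and LMO2 in stem cells. Erg was at 77.6, 64.5 and 94.2 TPM in Evi1 HSC, against 67.3 and 65.6 TPM in the WT HSC pair, and 2.94 and 1.18 TPM in the WT KL pair. Over 7 libraries limma called 0 of these 3 between Evi1 HSC and WT HSC, with 0 at an unadjusted p under 0.05 and differences of −0.09 for Runx1, 0.22 for Erg and 0.02 for Fli1. All 3 were called higher in WT HSC than in WT KL, at 1.65, 4.53 and 3.15, against 26.7% of all genes.

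Among 14 tested partners of the SCL complex (E proteins, Ssbp genes, LIM and ETO relatives and Id inhibitors), limma called 0 between Evi1 HSC and WT HSC over 7 libraries. At an unadjusted p under 0.05 there was 1, against 1635 of all 19461 genes. Tcf3, which encodes the E proteins that pair with TAL1, was at 20.1 to 24.6 TPM in Evi1 HSC and 25.2 to 42.7 TPM in the 6 WT libraries, and differed from WT HSC by −0.39 (limma adjusted p = 0.613). It was the 1 partner of 14 (7.14%) below all WT libraries, against 4.28% of all genes. In WT HSC 4 of the 14 partners were higher than in WT KL and none lower, against 26.7% and 10.8% of all genes, so the higher share was near that of all genes. They included Cbfa2t3, the ETO relative found in the complex, at 2.21 (limma adjusted p = 0.000628), and the E protein genes Tcf4 at 1.09 and Tcf12 at 0.57.

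Of the 15 corepressors and coactivators of GATA1, FOG1 and GFI1B, 0 were called by limma between Evi1 HSC and WT HSC over 7 libraries. At an unadjusted p under 0.05 there was 1, against 1635 of all 19461 genes. Between WT HSC and WT KL 3 of the 15 were called, against 37.5% of all genes, Crebbp higher (0.99) and Gatad2a (−0.93) and Mbd3 (−0.53) lower. Against all 6 WT libraries, 1 of the 15 (6.67%) was lower in every Evi1 HSC library and 0 higher, beside 4.28% and 5.11% of all genes. Of the 8 tested partners and relatives of NFE2, 0 were called between Evi1 HSC and WT HSC by limma. Again 1 had an unadjusted p under 0.05, beside the same 1635 genes. Against all 6 WT libraries, 1 of the 8 (12.5%) was lower in every Evi1 HSC library and 0 higher, beside the same shares of all genes. Bach1, a repressor that competes for NFE2 sites, was higher in WT HSC than in WT KL by 1.01 and differed by −0.02 between Evi1 HSC and WT HSC.

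Spi1, which encodes the myeloid factor PU.1 that opposes GATA1, was at 43.3, 43.4 and 48.9 TPM in Evi1 HSC, against 40.4 and 27.0 TPM in the WT HSC pair. The difference of 0.44 (SE 0.33) did not pass (limma adjusted p = 0.795). Spi1 was the 1 of 5 tested opposing factors above all WT libraries, which held 6.29 to 40.4 TPM, against 5.11% of all genes. Ikzf1, a zinc finger factor of lymphoid and red cells, was at 75.2 to 81.1 TPM in Evi1 HSC and 36.4 to 68.2 TPM in the 6 WT libraries. It was the 1 of 10 tested red cell regulators above all WT libraries, against 5.11% of all genes, and its difference of 0.86 from WT HSC did not pass (limma adjusted p = 0.125). Of the other GATA factors only Gata3 was tested, at 1.88 to 2.12 TPM in Evi1 HSC, against 2.38 and 2.89 TPM in the WT HSC pair, and it was listed at 0 in the WT KL pair. Of the libraries against their labels, WT HSC replicate 3 had it listed at 0 and WT KL replicate 1 held 3.32 TPM. Gata4, too low to be tested, held 0.320 to 0.601 TPM in Evi1 HSC and 0.0103 to 0.167 TPM in the 6 WT libraries, Gata6 reached 0.200 TPM and Gata5 was listed at 0 in every library.

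Platelet genes, known targets of GATA1 and NFE2, were followed as well. Of 12 tested megakaryocyte genes limma called 0 between Evi1 HSC and WT HSC over 7 libraries, with a median of 0.04 beside 0.00 over all genes. At an unadjusted p under 0.05 there was 1, against 1635 of all 19461 genes. Between WT HSC and WT KL 5 of the 12 were higher in WT HSC and none lower, against 26.7% and 10.8% of all genes. In every Evi1 HSC library 2 of the 12 (16.7%) were higher than in all 6 WT libraries and 0 lower, against 5.11% and 4.28% of all genes.

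The members fell into sets by their pattern over the 9 libraries, as log2(TPM + 1) and without use of labels. Pearson's r with Gata1 was 0.99 for Gfi1b, 0.97 for Klf1 and 0.93 for Zfpm1, and −0.92 for Gata2, −0.95 for Nfe2, −0.89 for Lyl1 and −0.76 for Lmo2. Tal1 (0.47) and Ldb1 (0.49) were least alike to it. Patterns were also compared with 9089 tested genes that averaged 5 TPM or more, leaving out predicted, Rik and clone-named genes. Among these, the 5 most like Gata1 were Rhag (0.994), Tfrc, Smim1, Snhg5 and Hesx1. The 5 most like Gata2 were Zfp358 (0.996), Mef2c, Atp8b2, Gimap1os and Pgpep1. Rhag, an ammonium channel of the red cell membrane, was at 8.75, 5.27 and 3.33 TPM in Evi1 HSC, against 21.4 and 21.1 TPM in the WT HSC pair and 124 and 123 TPM in the WT KL pair. The libraries form 2 sets that also differ in the number of genes at 1 TPM, 15422 to 15819 in 3 libraries and 18258 to 18806 in 6, so r is a description over n = 9 with no p.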

How the data were processed

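The study sequenced RNA of 9 libraries in 3 groups of 3. Each deposited table gives TPM per gene for a single library, per the file headers. The value column of WT HSC replicate 2 is headed C_H3 and was read as TPM, since its range and sum are like those of the other tables. The submitters' processing notes name HISAT2, StringTie and mm10. Their roles, versions and strand setting are not given in sources used here. TPM is a share of a library's total, so a rise in abundant genes lowers the rest. The listed genes account for 56.9% to 63.8% of that total. Depth cannot be read from TPM, and neither counting intervals nor count models were used.

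limma 3.58.1 (R 4.3.3) was run on log2(TPM + 1). To be tested, a gene needed 1 TPM in at least 3 of the 9 libraries. Group means were fitted with moderated, trended variances over 9 and over 7 libraries, and a gene was called at a Benjamini-Hochberg adjusted p under 0.05 over all 19461 tested genes. The code was tested on simulated data. The log2 ratio of Gata2 to Gata1 was compared by exact two-sided permutation over libraries. Members and gene lists were chosen with earlier results of these data known. Beyond the members, the text names genes called between Evi1 HSC and WT HSC, up to 4 called genes per list, direction and other comparison with 10 TPM or more, any red cell, SCL or stem cell partner gene, and the 5 genes most alike in pattern to Gata1 and to Gata2 (mean of 5 TPM or more). Predicted, Rik and clone-named genes were left out of the search for genes alike in pattern. Gata3 to Gata6, Cd68, Mrc1, Lyve1 and Stab2 were named after their values were seen, and Adgre1, C1qa, C1qb, Cd5l, Cdh5 and Kdr as markers of their cell types. Values of some listed genes are not reported here. Alternatives were a pseudocount of 0.1, no filter, quantile normalization, a fit of the compared groups alone, a replicate block and leaving out each library. Evi1 HSC beside all 6 WT libraries was added after seeing the data. Coordinates are from GENCODE M21 (GRCm38) and promoters from RefSeq (GRCm38.p6).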

Additional observations from a re-analysis of the deposited data

How the results depend on the processing

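Between Evi1 HSC and WT HSC over 7 libraries 2 members were called. The count was 1 with a pseudocount of 0.1, 1 with no filter on low values, 0 with only the groups compared and 0 to 2 without 1 library. Over all genes 40 were called, and 30, 73 (of 35537) and 6 in those settings and 5 to 27 without 1 library. The 3 called red cell genes of that comparison became 0 to 4 without 1 library. Over 9 libraries, the counts between Evi1 HSC and WT KL were 0 to 3 members and 0 to 7 red cell genes without 1 library, against 2 to 96 of all 19461 genes. Counts of members over 7 libraries were 6 to 8 between WT HSC and WT KL and 6 to 9 between Evi1 HSC and WT KL. Over all genes the same settings called 4291 to 7558 and 5641 to 9038, in that order, of 19461 tested (35537 with no filter). Of 780 alternatives for single members, 730 kept their direction and their side of the threshold, 29 lost a call, 5 gained one and 16 changed direction. The cause of these changes was not tested.

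With the replicate number as a block, 0 members and 0 of all 19461 genes were called between Evi1 HSC and WT HSC over 7 libraries, and Gata2 was −0.0669. No label says whether same-numbered libraries belong together. Their deviations from the group means correlated at −0.104 to −0.034 between Evi1 HSC and WT HSC and at −0.051 to 0.040 between Evi1 HSC and WT KL. Between WT HSC and WT KL they correlated at −0.636 to 0.704. Both WT means include a library against its label, so these correlations cannot show whether the numbers pair the libraries.

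Changes of direction were all in differences that had not been called, and most came from leaving out 1 library. Over 9 libraries between Evi1 HSC and WT HSC, Tal1 then ranged from −0.402 to 0.0498 and Lmo2 from −0.26 to 0.49. Between WT HSC and WT KL over 9 libraries, Gata1 ranged from −1.79 to 0.00456, Zfpm1 from −0.35 to 0.00788 and Ldb1 from −0.11 to 0.18. Over 7 libraries between Evi1 HSC and WT HSC, Gata2 ranged from −0.13 to 0.26, Tal1 from −0.30 to 0.15 and Ldb1 from −0.28 to 0.0588. Ldb1 ranged from −0.21 to 0.13 between WT HSC and WT KL over 7 libraries, and quantile normalization gave 0.20 there and 0.0613 between Evi1 HSC and WT KL. Limits are 2 or 3 libraries per group, an unknown depth and no label for separate fetuses.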
